A study of Mus musculus with 11 samples.

Results

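ATF4 and its relatives in the response to unfolded protein and amino acid stress were followed through a comparison of mouse induced pluripotent stem cells (iPSC) grown with and without feeder cells. The set held 9 of the 17711 genes named on the array, which are Atf4, Chac1, Ddit3, Trib3, Asns, Vldlr, Hspa5, Xbp1 and Herpud1. Every probe annotated with one of these symbols was taken, 19 of the 46627 probes on the array, and each probe was kept apart. Of these, 17 passed the filter on dim probes, among 18144 probes kept in all. The other two are Vldlr probes (ILMN_2494669 and ILMN_2520353) that were not detected on any of the 8 measured arrays.

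The groups were iPSC grown on feeder cells (3 arrays), feeder-free iPSC (3 arrays) and feeder cells alone (2 arrays), all labelled as strain C57BL/6. For the on-feeder cultures the labels name mitomycin C-treated SNL76/7 cells as the layer, and say that the colonies were separated from it mechanically. Feeder-free iPSC received 1000 units per ml of LIF, the cytokine that keeps mouse pluripotent cells undifferentiated, in medium with 15% serum. The feeder arrays hold embryonic fibroblasts that express LIF and are called MSTO; how MSTO and SNL76/7 relate is not stated, so feeder values stand for the layer only as far as the cells are alike. The authors also made 3 computed mixtures (92% feeder-free plus 8% feeder signal), which stand in for a culture that carries some feeder RNA. The deposited feeder-free columns are pooled, so each feeder-free array used here was worked back out of a mixture column. The labels do not say whether replicates are separate cultures, so p-values measure only the spread between these arrays.

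Detected probes numbered 17630 to 19043 with feeder cells, 17307 to 18759 without, and 13581 to 14574 for feeder cells alone. The pluripotency markers went with the labels, with 9 of 9 measured markers detected on every iPSC array, against 0 and 4 on the feeder arrays. Of 12 fibroblast markers, 8 to 9 were detected in iPSC on feeder cells, 7 to 8 in feeder-free iPSC and 9 in feeder cells. Col1a2, Col3a1 and Postn were detected on none. The summed signal of the 12 fibroblast markers was 3239 to 4905 in iPSC on feeder cells, 1170 to 1458 in feeder-free iPSC and 28508 to 33402 in feeder cells. Between the iPSC groups, 7 of 9 kept fibroblast markers were higher on feeder cells and 0 lower, with Pdgfrb (0.07, adjusted p = 0.738) and Prrx1 (-0.20, adjusted p = 0.336) not past the test. Of 7 primitive endoderm markers, 5 were lower on feeder cells and 0 higher, with Gata4 at a log2 fold change of -1.27 (adjusted p = 0.000547). Their summed signal was 2423 to 5097 on feeder cells, 3851 to 5459 in feeder-free iPSC, and 429 and 456 in feeder cells. Of 4 kept endothelial markers 1 was lower, Cdh5 at -1.16 (adjusted p = 9.89e-05), and of 9 pluripotency markers 1 was lower, Utf1 at -0.51 (adjusted p = 0.014). None of 4 macrophage markers was detected on any array. The part of these markers' cells in the members' values was not tested, apart from that of feeder RNA.

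ATF4 is a transcription factor whose protein is made when kinases phosphorylate the translation factor eIF2alpha, as happens when amino acids run short, when unfolded proteins build up in the endoplasmic reticulum (ER), or under other stress. It raises genes for amino acid import and synthesis, and, with its target CHOP (the product of Ddit3), genes that slow growth or promote cell death. The ER has further sensors, ATF6 and IRE1, which act through ATF6 itself and through spliced XBP1 on chaperones and on the removal of misfolded proteins. Much of this control is on translation and splicing, which probe signals on total mRNA do not read.

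ATF4 binds, as a dimer with C/EBP proteins, a composite element with the letters TGATGNAA, and ATF6 acts through the ER stress element, in which CCAAT and CCACG stand 9 bases apart. Promoter windows reached 250 bases upstream and 50 bases downstream of the start of the gene (RefSeq, GRCm38.p6). They were available for all 9 genes, with 10 windows because Vldlr has a second start, and both strands were searched. The stretches below are shown because they hold the element of each pathway beside the genes whose values follow. Each reads in the direction of its gene with the match in capitals; the composite element reads TTGCATCA where it lies on the opposite strand.
Chac1, chr2:119351034-119351071, plus strand: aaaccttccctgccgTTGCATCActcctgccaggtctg
Asns, chr6:7693210-7693247, minus strand: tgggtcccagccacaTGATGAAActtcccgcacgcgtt
Vldlr, chr19:27216805-27216842, plus strand: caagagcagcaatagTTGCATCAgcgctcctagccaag
Herpud1, chr8:94386302-94386339, plus strand: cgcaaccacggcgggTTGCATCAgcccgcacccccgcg
Hspa5, chr2:34772010-34772058, plus strand: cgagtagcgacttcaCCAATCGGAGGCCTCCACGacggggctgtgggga

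The composite element was held by 3.97% of all 32851 mouse promoter windows, and the ER stress element by 0.119%. The match began 193 bases upstream of the start in Chac1, 23 in Asns, 200 in the second Vldlr window and 112 in Herpud1. Trib3 held a further composite match, downstream of its start. Hspa5 held the ER stress element 65 bases upstream. No match to these or to the related elements TGACGTGG (held by 0.676% of windows) and TGACGTCA (1.79%) was found in the windows of Atf4, Ddit3 and Xbp1 or in the first Vldlr window. These matches are descriptions of the letters in the window and say nothing of binding.

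In iPSC on feeder cells compared with feeder-free iPSC, 5 of the 17 kept member probes rose and 0 fell at an adjusted p under 0.05. The higher probes were 2 of 4 for Vldlr, the only probe for Chac1, 1 of 3 for Trib3 and 1 of 3 for Atf4. Over all kept probes, 13.3% passed the test in this comparison, 7.36% higher and 5.94% lower (limma, Benjamini-Hochberg adjustment). The members' median log2 fold change was 0.20, against -0.03 over all kept probes. The groups did not overlap in 8 of the 17 probes, where 31.9% of all kept probes did not overlap. One of the 8, Vldlr probe 4, was detected in neither iPSC group. Vldlr probe 3, also among the 8, passed the filter only through iPSC on feeder cells. The genes were chosen with earlier results of these data known, Chac1 and Vldlr among them. These counts and the median are therefore no test of the members against all kept probes. Signals are given as log2 values after background correction and normalization between arrays; a difference of 1 is a doubling, and levels of different probes are not comparable.

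**Figure D1:**
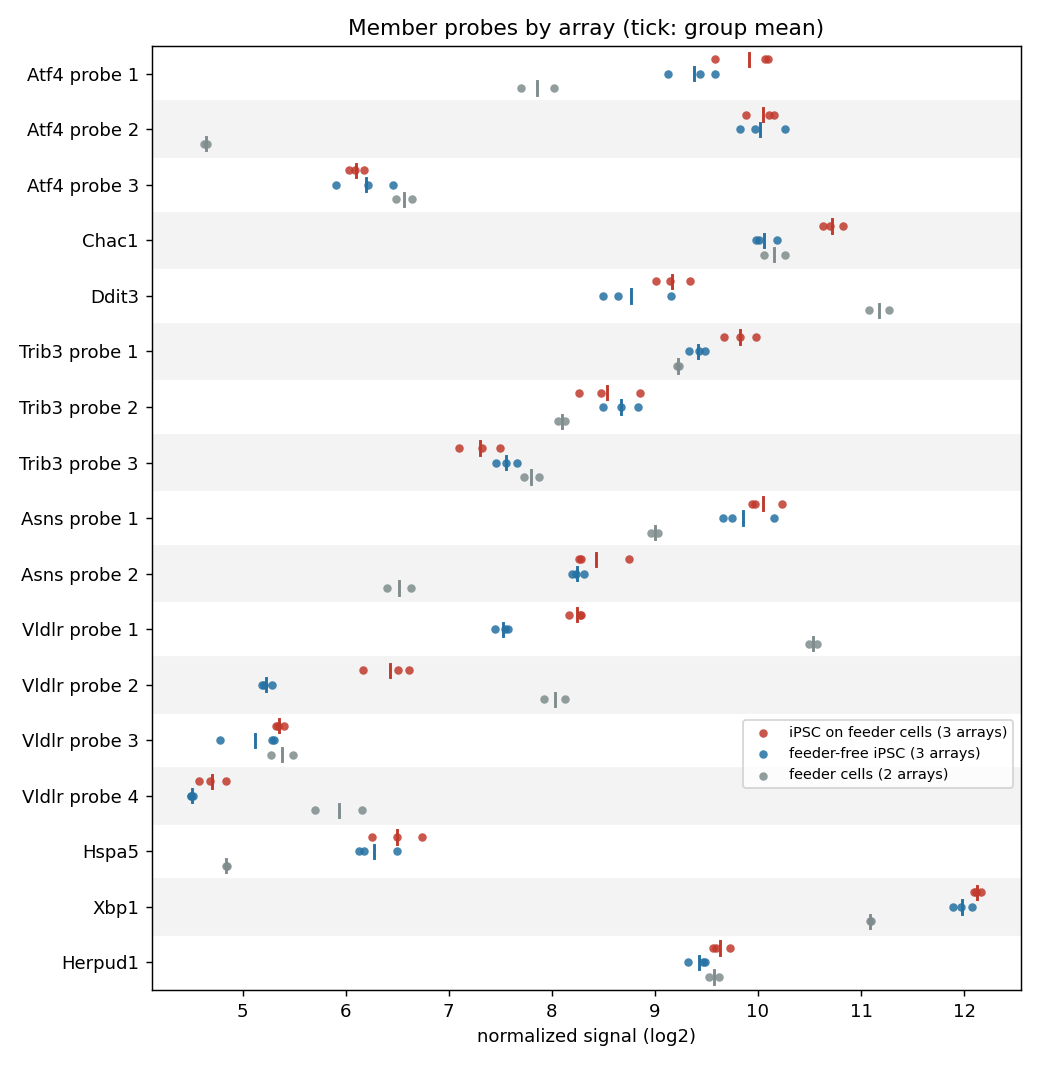
Normalized log2 signal of the 17 kept member probes (rows) on each of the 8 measured arrays, with points for arrays and ticks for group means. Chac1 on feeder cells lies above both other groups, while Ddit3 and the first 2 Vldlr probes are highest in feeder cells, and Atf4 probes 1 and 2, Asns, Hspa5 and Xbp1 are lowest there (Atf4 probe 2 and Hspa5 were not detected in feeder cells).

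Chac1, an enzyme that breaks down glutathione and is a target of the ATF4, ATF3 and CHOP chain, rose on feeder cells. Its probe (ILMN_2617468) read 10.70, 10.63 and 10.82 in iPSC on feeder cells, 10.01, 10.19 and 9.98 in feeder-free iPSC, and 10.06 and 10.26 in feeder cells. All 3 on-feeder arrays lay above every other array. The log2 fold change of on-feeder over feeder-free iPSC was 0.66 (SE 0.11, 95% confidence interval 0.42 to 0.90, adjusted p = 0.0019 by limma). Against feeder cells the on-feeder signal was higher by 0.56 (SE 0.12, adjusted p = 0.00115), although this difference fell to 0.26 (adjusted p = 0.103) when arrays were scaled to a common median instead of quantile normalized. Feeder-free iPSC and feeder cells differed by -0.10 (interval -0.37 to 0.17, adjusted p = 0.453), but with median scaling feeder-free iPSC were lower (-0.36, adjusted p = 0.0296).

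Vldlr encodes the very low density lipoprotein receptor, which takes up lipoproteins and binds reelin, and is raised by ATF4 under ER stress. Probe 1 (ILMN_2515599) read 8.28, 8.17 and 8.29 in iPSC on feeder cells, 7.55, 7.58 and 7.45 in feeder-free iPSC, and 10.49 and 10.58 in feeder cells. Probe 2 (ILMN_2471819) read 6.51, 6.17 and 6.62 on feeder cells, 5.29, 5.21 and 5.19 in feeder-free iPSC, and 7.93 and 8.13 in feeder cells. With both probes the on-feeder arrays lay between the other groups, without overlap. The rise over feeder-free iPSC was 0.72 with probe 1 (SE 0.10, adjusted p = 0.000454) and 1.20 with probe 2 (SE 0.13, adjusted p = 5.03e-05). Without background correction the rise was 0.55 with probe 1 and 0.57 with probe 2 (adjusted p = 0.000128 and 0.000405). Probe 2 lay near the detection floor in feeder-free iPSC, where the lowest signals of detected probes were 4.94 to 5.05. The size of its rise therefore depends on that correction.

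Vldlr probes 3 and 4 are dim as well. Probe 3 (ILMN_1230923) averaged 5.36 in iPSC on feeder cells, 5.12 in feeder-free iPSC and 5.39 in feeder cells, with a log2 fold change of on-feeder over feeder-free iPSC of 0.23 (interval -0.07 to 0.54, adjusted p = 0.299). It was detected on 3 on-feeder, 2 feeder-free and 1 feeder arrays, and so passed the filter only through iPSC on feeder cells. Probe 4 (ILMN_2458671) was detected in neither kind of iPSC and passed the filter only through the feeder cells. Feeder-free iPSC were lower than feeder cells with a log2 fold change of -3.01 for probe 1 (SE 0.11, adjusted p = 8.76e-11) and -2.80 for probe 2 (SE 0.14, adjusted p = 1.63e-09). The change of probe 3 did not pass the test there (-0.26, adjusted p = 0.139). Probe 4, which had to differ to pass the filter, stood in feeder-free iPSC at least 1.91-fold below feeder cells, a bound given as a description.

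Ddit3, which encodes CHOP, had its highest signal in feeder cells. The probe (ILMN_2652909) read 9.15, 9.34 and 9.01 in iPSC on feeder cells, 8.64, 9.15 and 8.50 in feeder-free iPSC, and 11.28 and 11.07 in feeder cells. The iPSC groups overlapped, because feeder-free array 2 stood as high as an on-feeder array. The log2 fold change of on-feeder over feeder-free iPSC was 0.40 (SE 0.16, interval 0.05 to 0.75, adjusted p = 0.122) and did not pass the test; without feeder-free array 2 it was 0.60 (adjusted p = 0.022). Against feeder cells the log2 fold change was -2.01 in iPSC on feeder cells (SE 0.18, adjusted p = 4.02e-07) and -2.41 in feeder-free iPSC (SE 0.18, adjusted p = 6.13e-08).

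Atf4 itself has 3 kept probes that did not move alike between the iPSC groups. Probe 1 (ILMN_2642681) read 10.07, 9.58 and 10.10 in iPSC on feeder cells, 9.58, 9.13 and 9.43 in feeder-free iPSC, and 8.02 and 7.70 in feeder cells. Probe 2 (ILMN_1223734) read 9.88, 10.10 and 10.16 on feeder cells, 9.83, 10.26 and 9.97 in feeder-free iPSC, and 4.66 and 4.63 in feeder cells, where it was not detected. Probe 3 (ILMN_1232872), annotated from a cDNA clone and not from the RefSeq transcript of the others, averaged 6.10, 6.20 and 6.57 in those groups.

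Probe 1 rose on feeder cells by 0.53 (SE 0.16, adjusted p = 0.048), although on-feeder array 2 and feeder-free array 1 were level. This call was lost without on-feeder array 1 (0.46, adjusted p = 0.16), on-feeder array 3 (0.45, adjusted p = 0.163), feeder-free array 2 (0.41, adjusted p = 0.182) or feeder-free array 3 (0.56, adjusted p = 0.102). It was also lost with median scaling (adjusted p = 0.122), with no filter on dim probes (0.167) and with the 2 iPSC groups fitted alone (0.0603). Probe 2 gave 0.03 (interval -0.25 to 0.30, adjusted p = 0.911) and probe 3 gave -0.10 (interval -0.39 to 0.20, adjusted p = 0.687). Feeder-free iPSC exceeded feeder cells by 1.52 with probe 1 (SE 0.18, adjusted p = 5.67e-06). With probe 2, which passed the filter only through iPSC and so had to differ, they were at least 23.5-fold higher, a bound given as a description. With probe 3 they were lower (-0.37, SE 0.15, adjusted p = 0.0376), a call lost without feeder-free array 1 (-0.23, adjusted p = 0.141), feeder-free array 2 (-0.38, adjusted p = 0.0647), feeder array 1 (-0.30, adjusted p = 0.189) or feeder array 2 (-0.45, adjusted p = 0.0561). It was also lost with median scaling (-0.005, adjusted p = 0.984), no background correction (-0.20, adjusted p = 0.0505), no filter on dim probes (adjusted p = 0.0855) and only the compared groups fitted (adjusted p = 0.0512), and passed in 3 of 11 alternatives. Probes 1 and 2 were lowest in feeder cells and probe 3 was highest there.

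Trib3 encodes a pseudokinase that is a target of ATF4 and CHOP and feeds back on ATF4. Its probe 1 (ILMN_1225528) read 9.83, 9.67 and 9.98 in iPSC on feeder cells, 9.43, 9.49 and 9.33 in feeder-free iPSC, and 9.23 and 9.22 in feeder cells, with no overlap between groups. The rise over feeder-free iPSC was 0.41 (SE 0.11, adjusted p = 0.0281). Probe 2 (ILMN_1252762) averaged 8.53, 8.67 and 8.10 and probe 3 (ILMN_1244279) 7.31, 7.56 and 7.80 in iPSC on feeder cells, feeder-free iPSC and feeder cells. Their log2 fold changes of on-feeder over feeder-free iPSC ran the other way, at -0.14 (adjusted p = 0.578) and -0.25 (adjusted p = 0.195), and neither passed the test. The files hold no probe positions here, so which part of the transcript each probe reads is not known.

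The call for Trib3 probe 1 was lost without on-feeder array 1 (0.41, adjusted p = 0.0781), on-feeder array 3 (0.33, adjusted p = 0.1), feeder-free array 1 (0.42, adjusted p = 0.0514), feeder-free array 2 (0.45, adjusted p = 0.0563) or feeder-free array 3 (0.37, adjusted p = 0.106). It was also lost with median scaling (adjusted p = 0.0821) and with the 2 iPSC groups fitted alone (0.0524). Against feeder cells, feeder-free iPSC were higher with probe 2 (0.57, SE 0.16, adjusted p = 0.00607), while probe 1 (0.19, adjusted p = 0.16) and probe 3 (-0.25, adjusted p = 0.112) did not pass.

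Asns encodes asparagine synthetase, whose gene is the textbook target of the amino acid response. Its probe 1 (ILMN_2643513) read 9.94, 9.97 and 10.23 in iPSC on feeder cells, 10.15, 9.74 and 9.66 in feeder-free iPSC, and 9.03 and 8.96 in feeder cells. Probe 2 (ILMN_2636755) averaged 8.43 on feeder cells, 8.25 in feeder-free iPSC and 6.51 in feeder cells. The iPSC groups overlapped with both, with log2 fold changes of 0.20 (interval -0.10 to 0.49, adjusted p = 0.382) and 0.19 (interval -0.11 to 0.48, adjusted p = 0.398). Feeder-free iPSC were higher than feeder cells by 0.85 with probe 1 (SE 0.15, adjusted p = 0.000225) and 1.73 with probe 2 (SE 0.15, adjusted p = 3.33e-07).

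The genes on the ER side did not pass the test between the iPSC groups. Hspa5 encodes BiP, the main ER chaperone, and its probe (ILMN_1255561) read 6.50, 6.25 and 6.74 in iPSC on feeder cells, 6.50, 6.13 and 6.18 in feeder-free iPSC, and 4.84 and 4.85 in feeder cells, where it was not detected. The log2 fold change of on-feeder over feeder-free iPSC was 0.22 (interval -0.08 to 0.53, adjusted p = 0.313). The probe passed the filter only through iPSC and so had to differ from feeder cells. Feeder-free iPSC were at least 1.75-fold higher than feeder cells, a bound given as a description. This is the single probe for the gene, so a feeder level for this chaperone, which all cells use, is not given by these arrays.

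Xbp1 encodes the transcription factor downstream of IRE1. Its probe (ILMN_2431237) read 12.16, 12.11 and 12.09 in iPSC on feeder cells, 12.07, 11.90 and 11.97 in feeder-free iPSC, and 11.10 and 11.08 in feeder cells. The 3 on-feeder arrays were all above the feeder-free ones, with a log2 fold change of 0.14 (interval -0.07 to 0.36, adjusted p = 0.371). Feeder-free iPSC exceeded feeder cells by 0.89 (SE 0.11, adjusted p = 8.13e-06). The files do not say whether this probe tells spliced from unspliced Xbp1.

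Herpud1, a membrane protein of the ER that helps in the removal of misfolded proteins, gave no call in any of the comparisons. Its probe (ILMN_2604741) read 9.59, 9.73 and 9.56 in iPSC on feeder cells, 9.32, 9.47 and 9.49 in feeder-free iPSC, and 9.62 and 9.52 in feeder cells. The on-feeder arrays again lay above the feeder-free ones, at 0.20 (interval -0.02 to 0.43, adjusted p = 0.218). Feeder-free iPSC and feeder cells differed by -0.15 (interval -0.40 to 0.10, adjusted p = 0.251), and with median scaling feeder-free iPSC were lower (-0.30, adjusted p = 0.0428).

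Feeder-free iPSC against feeder cells gave 7 member probes higher and 5 lower of 17, 70.6%, in a comparison in which 80.1% of all kept probes passed (41.2% higher, 38.8% lower). For iPSC on feeder cells against feeder cells the counts were 9 higher and 6 lower, 88.2%, beside 79.4% of all kept probes (39.6% higher, 39.8% lower). These shares lie near the background of each comparison and are no result about the members. They include 3 probes that were detected in 1 cell type only and so had to differ (Atf4 probe 2 and Hspa5 in iPSC, Vldlr probe 4 in feeder cells). Without them the counts were 7 higher and 5 lower of 14 in iPSC on feeder cells, and 5 higher and 4 lower of 14 in feeder-free iPSC. The 14 still hold Vldlr probe 3, which passed the filter only through iPSC on feeder cells and passed the test in neither comparison. The groups did not overlap in 15 of the 17 probes in either comparison, where 85.6% of all kept probes did not overlap between iPSC on feeder cells and feeder cells, and 86.6% between feeder-free iPSC and feeder cells. The comparisons share their arrays. By group, Ddit3 and the first 2 Vldlr probes were highest in feeder cells and lowest in feeder-free iPSC, and the iPSC groups next to each other in that order differed past the test for Vldlr but not for Ddit3. Atf4 probe 1, Trib3 probe 1, Asns and Xbp1 were highest in iPSC on feeder cells and lowest in feeder cells, and among these the iPSC groups differed past the test for Atf4 probe 1 and Trib3 probe 1. Feeder-free iPSC and feeder cells did not differ past it for Trib3 probe 1.

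Over the 8 measured arrays the brightest kept probe of each gene gave Pearson correlations of log2 signal of 0.95 for Atf4 with Asns and 0.97 with Xbp1. Ddit3 correlated at 0.98 with Vldlr and at -0.88 with Atf4. Chac1 was nearest to Trib3 at 0.88, and stood at 0.52 with Atf4 and -0.13 with Ddit3. The 8 arrays fall into groups that share a cell type and culture, so these values describe the group pattern and carry no test. By the same measure, the non-member genes most like Atf4 probe 1 were Reln (0.99), Dcun1d5 (0.99) and Spc25 (0.99). Those most like Chac1 were Sox5 (0.96), Mmp13 (0.96) and Ilrun (0.96). Hspa5 is left out here, since its feeder values were below detection.

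Because 7 of 9 kept fibroblast markers were also higher on feeder cells, the on-feeder signal of each member was set against what feeder RNA would add. Fewer cells of a type and less RNA per cell cannot be told apart in such bulk samples. Over 57 feeder-specific probes, the on-feeder arrays carried a feeder share of 5.59% (5.21%, 3.70% and 5.77% on the single arrays). On the linear scale, Vldlr probe 1 averaged 287 in iPSC on feeder cells, 168 in feeder-free iPSC and 1467 in feeder cells, and an 8% mixture would give 272. Its own share was 9.15% (9.7%, 7.9% and 9.8% on the single arrays, each above the feeder share of that array), and at the measured share of 5.59% the expected level was 241, below all 3 on-feeder arrays (272 to 296). Vldlr probe 2 averaged 71.0, 21.5 and 246 in the same groups and would give 39.4 in the mixture, with a share of 22.1% (23.8%, 15.3% and 27.1% on the single arrays). Ddit3 averaged 560, 428 and 2302 and would give 577 at 8% and 532 at the measured share, with a share of 7.07% (6.6%, 10.8% and 3.8% on the single arrays). Chac1 averaged 1669, 1051 and 1131, and the mixture would give 1058, since feeder cells hardly exceed feeder-free iPSC.

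**Figure D2:**
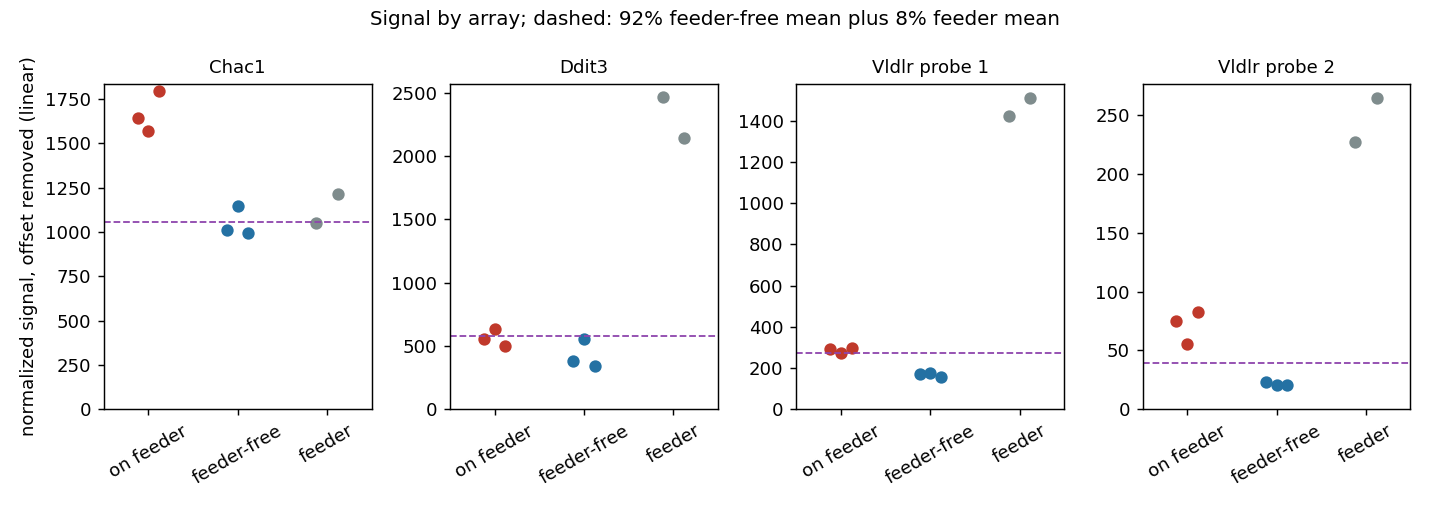
Normalized linear signal of 4 member probes on each on-feeder, feeder-free and feeder array (points), with the level that 92% of the feeder-free mean plus 8% of the feeder mean would give (dashed line). On-feeder arrays lie on or about the line for Ddit3 and Vldlr probe 1, and all 3 lie above it for Chac1 and Vldlr probe 2.

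Tested against 3 mixtures rebuilt from the arrays, 4 of 17 member probes were higher in iPSC on feeder cells and 0 were lower, 23.5%, where 7.20% of all kept probes passed (3.92% higher, 3.27% lower). On-feeder arrays and mixtures did not overlap in 8 of the 17, where 30.2% of all kept probes did not. Vldlr probe 3, which passed the filter only through iPSC on feeder cells, is among the 8. Since the genes were chosen with earlier results known, Chac1 and Vldlr among them, these shares are no test of the members against all kept probes. The 4 probes past the test were Chac1, at a log2 fold change of 0.64 (SE 0.11, interval 0.40 to 0.88, adjusted p = 0.0061), Vldlr probe 2 at 0.89 (SE 0.13, adjusted p = 0.00237), Atf4 probe 1 at 0.60 (SE 0.16, adjusted p = 0.044) and Trib3 probe 1 at 0.42 (SE 0.11, adjusted p = 0.0454). Vldlr probe 1 did not pass here (0.10, interval -0.13 to 0.32, adjusted p = 0.589), nor did Ddit3 (-0.04, interval -0.34 to 0.27, adjusted p = 0.9). With mixtures rebuilt at the measured share of 5.59%, a setting chosen after seeing the data, Vldlr probe 1 stood at 0.24 (SE 0.10, adjusted p = 0.158), Vldlr probe 2 at 1.01 (adjusted p = 0.00093), Chac1 at 0.64 (adjusted p = 0.00576), Trib3 probe 1 at 0.41 (adjusted p = 0.0489), Atf4 probe 1 at 0.57 (adjusted p = 0.0519) and Ddit3 at 0.08 (adjusted p = 0.761). Without background correction Vldlr probe 2 was at 0.47 against the mixture (adjusted p = 0.00542). The Vldlr probes thus do not give a single answer, and the difference between them was not tested. The mixtures are made of the same feeder-free and feeder arrays and are not further samples.

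Chac1 and Vldlr probe 2 held against the mixture under every alternative and with each array left out. The calls of Atf4 probe 1 and Trib3 probe 1 did not: Atf4 was lost without on-feeder array 1 (0.53, adjusted p = 0.145) or 3 (0.52, adjusted p = 0.138) and without mixture 2 (0.48, adjusted p = 0.162) or 3 (0.62, adjusted p = 0.112). Trib3 was lost without on-feeder array 1 (0.42, adjusted p = 0.123) or 3 (0.35, adjusted p = 0.135) and without mixture 1 (0.43, adjusted p = 0.081), 2 (0.46, adjusted p = 0.109) or 3 (0.38, adjusted p = 0.163). Both were lost with median scaling (adjusted p = 0.106 for Atf4 and 0.112 for Trib3) and with no filter on dim probes (0.148 and 0.0722).

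**Figure D3:**
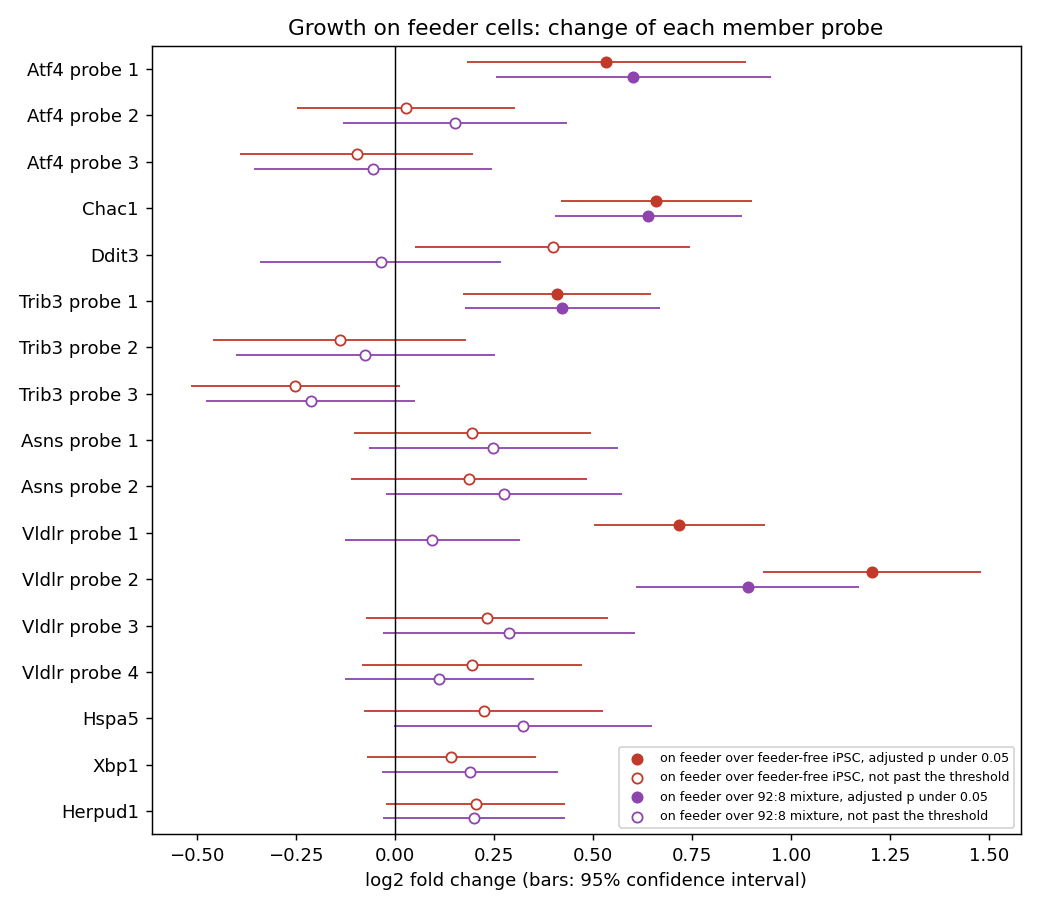
Log2 fold change of each kept member probe (rows) in iPSC on feeder cells over feeder-free iPSC (red) and over the 92:8 mixture (purple), with 95% confidence intervals and filled points for an adjusted p under 0.05. Chac1 stays at 0.66 and 0.64, Vldlr probe 1 is at 0.72 over feeder-free iPSC and 0.10 over the mixture, and Ddit3 at 0.40 and -0.04.

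Other genes of these pathways were counted with the brightest kept probe of each gene, over 10058 genes, of which 8.67% were higher and 6.84% lower in iPSC on feeder cells than in feeder-free iPSC. Among 33 measured targets of ATF4 and CHOP, 7 rose and 2 fell, with a median log2 fold change of 0.04 against -0.02 over all genes. Chac1, Vldlr and Trib3 are among the 7; without the members, 4 of 28 rose and 2 fell, with a median of -0.06. Vegfa, the endothelial growth factor, rose by 0.63 (SE 0.13, adjusted p = 0.00812). Slc1a4, a carrier of alanine and serine, rose by 0.59 (SE 0.15, adjusted p = 0.0256), and Slc6a9, a glycine carrier, by 0.44 (SE 0.10, adjusted p = 0.013). Against the mixture Vegfa stood at 0.64 (adjusted p = 0.0173) and Slc1a4 at 0.60 (adjusted p = 0.041), and Slc6a9, which is high in feeder cells, at -0.01 (adjusted p = 0.957).

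Cytosolic aminoacyl-tRNA synthetases, which charge tRNAs with amino acids and include many ATF4 targets, held 0 calls among 11 genes between the iPSC groups (median 0.05). Against feeder cells, 8 of the 11 were higher in feeder-free iPSC and 0 lower, with a median of 0.62, where 40.5% of all genes were higher and 40.6% lower (median of all genes -0.01). The 11 include Cars and Yars, which were not detected in feeder cells. These passed the filter only through iPSC and so could only come out higher there, so part of this count was fixed by the filter. Lars was higher by 1.44 (SE 0.11, adjusted p = 8.23e-08) and Mars1 by 0.83 (SE 0.15, adjusted p = 0.000186). Iars was higher by 1.39 (SE 0.16, adjusted p = 4.95e-06), and by 0.64 with its other probe. Cars was not detected in feeder cells with its brightest probe and was at least 9.27-fold higher in feeder-free iPSC, while its other 2 kept probes, at -0.15 and 0.46, did not pass.

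Of 14 listed ER stress sensors, eIF2alpha kinases and related genes, 11 were kept, of which 1 rose and 2 fell on feeder cells (median -0.06). The eIF2alpha kinase genes Eif2ak3 and Eif2ak4 were not among the genes kept, so these counts do not cover them. Eif2ak2, the kinase PKR that responds to double-stranded RNA, rose by 0.57 (SE 0.11, adjusted p = 0.00586), and was at 0.02 against the mixture (adjusted p = 0.943). Mbtps1, the protease that activates ATF6, fell (-0.53, SE 0.11, adjusted p = 0.00612), and also with its other probe (-0.50, adjusted p = 0.0379). Eif2ak1, the haem-regulated kinase, changed by -0.40 (SE 0.10, adjusted p = 0.0246). The sensor genes Ern1, which encodes IRE1, and Atf6 gave 0.30 (adjusted p = 0.155) and -0.06 (adjusted p = 0.794).

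Among 22 ATF6 and XBP1 targets and ER chaperones, 1 rose and 1 fell (median 0.12). Canx, the chaperone calnexin, rose by 0.53 with its brightest probe (SE 0.12, adjusted p = 0.0117) and gave -0.11 (adjusted p = 0.609) with the other. Sec61a1, the core of the channel through which proteins enter the ER, changed by -0.42 (SE 0.12, adjusted p = 0.0389). Its other probe gave -0.23 (adjusted p = 0.417). The chaperones Hsp90b1 and Pdia4 gave 0.09 (adjusted p = 0.684) and -0.01 (adjusted p = 0.975). Among 18 genes of ER-associated degradation, 1 rose and 1 fell (median -0.01), the ubiquitin ligase Syvn1 at 0.36 (SE 0.10, adjusted p = 0.0301) and Ufd1, which helps draw proteins out of the ER, at -0.42 (SE 0.10, adjusted p = 0.0208). Over the mixture Syvn1, which is higher in feeder cells, stood at 0.21 (adjusted p = 0.212) and Ufd1 at -0.39 (adjusted p = 0.0455). Against feeder cells, feeder-free iPSC had 11 higher and 6 lower of the 22 chaperones and targets (median 0.28), and 2 higher and 9 lower of the 18 degradation genes (median -0.38). Of all genes, 40.5% were higher and 40.6% lower. Without the members, 9 of 20 chaperones and targets were higher and 6 lower (median -0.02). Hspa5, Derl3 and Ube2j1 were not detected in feeder cells, passed the filter only through iPSC and so could only come out higher there. Among the degradation genes, Os9 changed by -1.40 (SE 0.12, adjusted p = 1.84e-07) and Ube2g2 by -1.30 (SE 0.14, adjusted p = 1.72e-06).

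**Figure D4:**
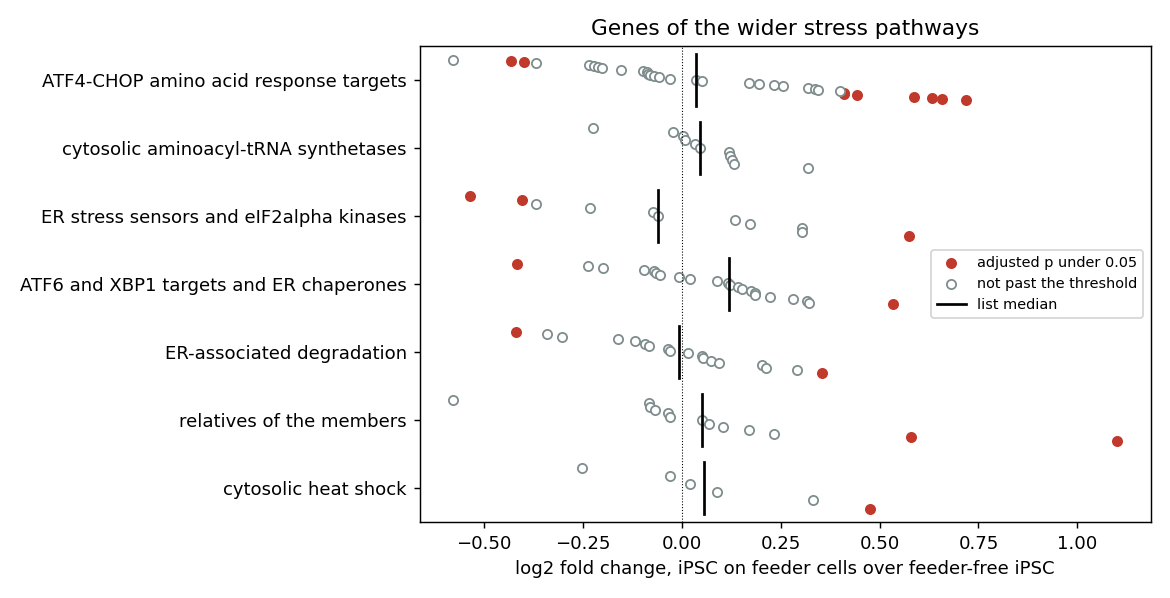
Log2 fold change in iPSC on feeder cells over feeder-free iPSC for genes of 7 lists (rows), one point per gene, filled for an adjusted p under 0.05, with bars at list medians. The medians run from -0.06 to 0.12, with 7 of 33 ATF4 and CHOP targets higher and 2 lower.

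Among 13 measured relatives and partners of the members, 2 rose on feeder cells and 0 fell (median 0.05). Jun, a partner in AP-1 dimers, rose by 1.10 (SE 0.15, adjusted p = 0.000347) and was at 0.40 against the mixture (adjusted p = 0.0567). Lrp1, a receptor of the Vldlr family, rose by 0.58 (SE 0.12, adjusted p = 0.00702) and was at 0.64 against the mixture (adjusted p = 0.0144). Its kin Lrp8, the other reelin receptor, gave 0.05 (adjusted p = 0.803). Trib2, a relative of Trib3, gave 0.10 (adjusted p = 0.722). Atf3, which acts between ATF4 and Chac1, gave -0.58 (SE 0.21, adjusted p = 0.088). Against feeder cells, 4 of the 13 were higher in feeder-free iPSC and 9 lower, where 40.5% of all genes were higher and 40.6% lower. Trib2, Batf3 and Creb3l1 were not detected in feeder cells, passed the filter only through iPSC and so could only come out higher there. Atf5, a close relative of ATF4, was lower (-3.51, SE 0.13, adjusted p = 1.1e-10), and iPSC on feeder cells were also below the mixture for it (-0.52, adjusted p = 0.0203). Cebpb, which pairs with ATF4, was lower as well (-1.63, SE 0.12, adjusted p = 6.98e-08).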

How the data were processed

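The deposited table holds non-normalized bead intensity per probe for Illumina arrays of biotinylated cRNA, per the file headers, beside a deposited detection score that rose with signal on every array (Spearman 0.9961 to 0.9987) and was read as 1 minus the detection p-value. Limma was used by the authors, per the submitters' processing notes, with its role and version not given in the sources used here. Of 46632 entries, 5 without a probe ID (at most 0.555% of an array's signal) were left out. The deposited feeder-free columns are pooled (the first and second are identical on 100% of probes). Single arrays were therefore recovered as the mixture column minus 8% of the feeder mean, divided by the feeder-free share of 92%. The last pooled column was computed again as 92% of the mean of these arrays plus 8% of the feeder mean. It differed from the deposited one by at most 0.0471, so that deposited column matches the mean of the mixture columns and carries their feeder signal. The shares, taken from the labels, cancel in that computation, so this difference does not test them. A further deposited table of normalized values was not used, since 9 of its columns did not match (correlations -0.0294 to -0.0265).

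Background correction used normexp (offset 16; limma 3.58.1, R 4.3.3), and signals were then quantile normalized and put on the log2 scale. A probe was kept when all arrays of some group scored over 0.95. Groups were compared by lmFit and eBayes, in 1 fit over 8 arrays (5 residual and 7.32 prior degrees of freedom), two-sided, with Benjamini-Hochberg adjustment over 18144 probes at 0.05. Rebuilt mixtures were normalized and fitted with the on-feeder arrays apart (4 residual degrees of freedom). Where a group was detected on no array, a fold is "at least" that over its floor, the lowest signal of detected probes on each array. Linear signals had the offset removed. The feeder share is the excess of on-feeder over feeder-free signal, divided by that of feeder over feeder-free signal (median of feeder-specific probes). Of the probes, 29972 had 1 symbol in the table given for the platform, 10 had several and 16645 were not listed. The fit was tested on simulated data.

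The genes and lists were chosen with earlier results of these data known, Chac1 and Vldlr among them. Genes named from each list had the largest changes past the threshold, at most 5 between iPSC groups and 4 against feeder cells. Any relative of a member could be named as well. Values against feeder cells are given for only part of these genes, and for none of the sensor list. Ern1, Atf6, Hsp90b1 and Pdia4 were named after their values were seen. Median signal of detected probes was 2.56 to 3.20 times that of undetected ones, which, with the number of arrays, limits the precision. Alternatives were median scaling, no background correction, other filters, the brightest probe per gene, each array left out, a replicate block, only the compared groups and, added after the data were seen, mixtures at the measured feeder share; on-feeder and feeder-free arrays of the same number correlated at 0.042, 0.153 and -0.194, so numbers were not taken as pairs.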

Additional observations from a re-analysis of the deposited data

How the results depend on the processing

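Chac1 and the first 2 Vldlr probes kept their rise over feeder-free iPSC under every alternative run; Atf4 probe 1 (ILMN_2642681) passed in 6 of 13 (adjusted p 0.011 to 0.182) and Trib3 probe 1 (ILMN_1225528) in 5 of 13 (0.00741 to 0.106). The 5 member probes called there became 3 with median scaling and 3 with only the compared groups fitted, 3 to 5 with single arrays left out, while all called probes ran from 1367 to 2981 (2413 in the fit reported; 1485 and 1442 without on-feeder array 1 or 3, 1403 and 1367 without feeder-free array 2 or 3). With single arrays left out, feeder-free iPSC against feeder cells gave 13776 to 14279 probes and 11 to 12 members, and iPSC on feeder cells against feeder cells 13573 to 14459 and 13 to 15. With the brightest probe per gene these gave 8233 probes with 6 members and 8130 with 8, since fewer probes are tested (10058, of which 9 are members). Against the mixture, 1306 probes and 4 members became 640 and 2 with median scaling, 748 and 2 with no filter on dim probes (46627 tested), and 496 to 2022 and 2 to 4 with single arrays left out (646, 2022 and 605 without on-feeder array 1, 2 or 3, and 496 and 531 without mixture 2 or 3); where no value shows it, the cause was not tested. A fit that leaves an arm with 1 array assumes that it varies like the other groups.

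With the replicate block, 2168 probes and 4 member probes passed between the iPSC groups; Trib3 probe 1 was then at an adjusted p of 0.0591, and at 0.0786 against the mixture. Against feeder cells Vldlr probe 3 passed with the block (-0.34, adjusted p = 0.0461). No other member call changed with it.

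Signs turned for member probes that did not pass the test in the comparison concerned. Between the iPSC groups, with single arrays left out, Atf4 probe 2 (ILMN_1223734) ran from -0.067 to 0.147, with -0.027 without on-feeder array 3, and Atf4 probe 3 (ILMN_1232872) from -0.238 to 0.037. In iPSC on feeder cells against feeder cells, Vldlr probe 3 (ILMN_1230923) ran from -0.147 to 0.084, and Herpud1 was at -0.124 with median scaling. Against the mixture Ddit3 ran from -0.12 to 0.102 (0.038 without on-feeder array 3, and 0.082 with the mixture at the measured feeder share), Trib3 probe 2 (ILMN_1252762) from -0.23 to 0.054 (0.003 without mixture 2) and Atf4 probe 3 from -0.193 to 0.069. Signal over background limits Hspa5 and Vldlr probes 2 to 4, whose signals lie near background.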

Other observations

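Cytosolic heat shock genes, which answer to unfolded protein outside the ER, were counted in the same way. Of 6 measured genes, 1 rose and 0 fell in iPSC on feeder cells compared with feeder-free iPSC. Hsp90aa1, a cytosolic chaperone, rose by 0.47 with its brightest probe (SE 0.12, adjusted p = 0.0183 by limma) and gave -0.15 (adjusted p = 0.621) with its other probe. Against feeder cells, 3 of the 6 were higher in feeder-free iPSC and 2 lower, where 40.5% of all genes were higher and 40.6% lower. Hsp90aa1 was not detected in feeder cells with its brightest probe, which passed the filter only through iPSC and so could only come out higher there. Hspb1, a small heat shock protein, was higher by 6.44 on the log2 scale (SE 0.24, adjusted p = 8.64e-11), and was detected on 1 of 2 feeder arrays. Hspd1, a chaperone of mitochondria, was higher by 1.34 (SE 0.13, adjusted p = 6.17e-07). Bag3, a co-chaperone of HSP70, was lower (-1.85, SE 0.12, adjusted p = 1.58e-08).

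Among 33 measured targets of ATF4 and CHOP, feeder-free iPSC had 12 higher and 15 lower when set against feeder cells. Of all genes, 40.5% were higher and 40.6% lower, so these counts lie near the background and are no result about the list. Bbc3, Cth, Ddit4, Sesn2, Slc3a2 and Slc7a1 were not detected in feeder cells. They passed the filter only through iPSC and so could only come out higher there. Slc7a3, a carrier of cationic amino acids, was higher in feeder-free iPSC by 5.54 (SE 0.16, adjusted p = 1.52e-11), with 1 of 2 feeder arrays detected, and by 1.54 with its other probe. Slc6a9 was lower (-2.72, SE 0.11, adjusted p = 2.67e-10).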
